A study of Danio rerio with 12 samples.

Results

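A group of 199 probe sets, 1.28% of the 15502 on the array that are not controls, read far higher in 1 pool of zebrafish eyes than in any other sample. Among the 119 genes they name are 51 placed by known function in roles of the oocyte, such as egg coat, stored RNA and meiosis. They were chosen by a fixed rule: log2 of the deposited signal plus 16 had to lie in the first pool of crushed eyes at day 4 (ONX day 4 pool 1) more than 4 above the highest of the other 11 arrays, which is more than 16-fold. One gene symbol is left out by the rule. A probe set is the group of short probes that reads 1 transcript, and the difference from the highest other array is called the excess below. Because the excess chose the probe sets, the values in ONX day 4 pool 1 are given as a description, with no test.

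The study measured RNA of whole eyes from adult zebrafish, all labelled male and wild type. In each fish the optic nerve of the left side was crushed (ONX), and the eye of the right side was only lifted out and returned, its nerve uninjured (SHAM). Collection was at day 4, day 12 or day 21, in pools of 5 eyes, with 2 pools for each of the 6 groups and 1 array for each pool. No transgene, mutation or drug other than the anaesthetic is named in the labels for any group. The labels do not say whether same-numbered ONX and SHAM pools hold eyes of the same fish, and the 2 pools of a group are the only replicates, so that p-values measure the spread between pools of eyes.

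The growing oocyte wraps itself in an egg coat built of zona pellucida (ZP) glycoproteins. It also stores messenger RNAs that are kept silent and short-tailed until they are needed, while germ plasm components mark the future germ cells. Meiosis is held by inhibitors of the cell cycle machinery, and special histones and histone chaperones prepare chromatin for the early embryo. Genes of all these kinds were among the 199 probe sets. The oocyte markers zp2.6, zp3.1, zar1, btg4 and mos were all members. Since the same values chose the members and gave the group its name, this is a description and no separate check of the name. The fish are labelled male, and how oocyte transcripts came to be in a pool of male eyes was not tested.

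Levels of the 199 probe sets in ONX day 4 pool 1 ran from 8.84 to 15.04 on the log2 scale, with a median of 12.15. On the other 11 arrays their medians lay between 5.02 and 5.71, while the median of all probe sets was 7.76 to 8.00 on the 12 arrays. A typical member thus sat at percentile 97.4 of its array in ONX day 4 pool 1 and between percentiles 9.08 and 15.8 elsewhere. The groups did not overlap, which the rule fixes. As a share of the summed signal, the members took 12.0% in ONX day 4 pool 1 and 0.0466% to 0.0802% on the other arrays. The same rule read for each of the other 11 arrays found 0 probe sets (0% of those on the array). The largest excess there was 2.81 in ONX day 12 pool 2. That reading kept ONX day 4 pool 1 among the arrays to exceed, so that no member could count for another array.

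**Figure D1:**
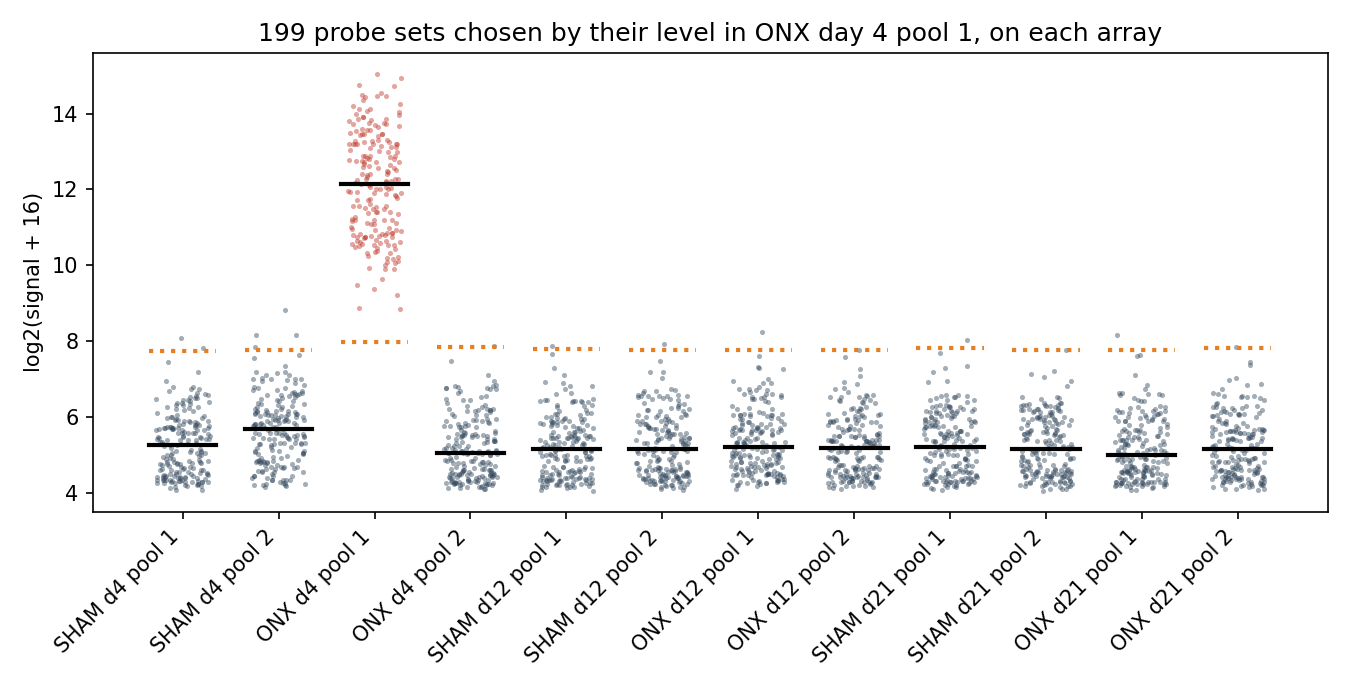
Each point is 1 of the 199 probe sets, in log2(signal + 16), on each of the 12 arrays (d, day). Black lines are the medians of the members and dotted lines the medians of all probe sets. Only in ONX day 4 pool 1 (red, median 12.15) do the members lie above the median of all probe sets as a group.

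The excess had a median of 5.87 (58.4-fold) and reached 9.01 (515-fold). These folds are of the signal plus 16, not of the signal itself. It was over 8 in 16 probe sets, between 6 and 8 in 78, between 5 and 6 in 44 and between 4 and 5 in 61. Of the 199, 134 carry 1 gene symbol and name 119 genes, 19 carry several symbols and 46 none. By known function, the 119 genes comprise 12 of the egg coat, 18 of maternal RNA control and germ plasm, 13 of meiosis and the cell cycle, 3 of chromatin and 5 secreted or transcription factors. The other 68 are of other or unknown function, and some of the cell cycle genes act in all dividing cells. In 7 of the 19 probe sets with several symbols, at least 1 symbol is of the zp family.

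The egg coat genes held 12 of the named members, read by 13 probe sets, with a median excess of 6.43. The gene zp2.6, which encodes a ZP glycoprotein, read 14.46 in ONX day 4 pool 1 and 4.28 in ONX pool 2. In SHAM eyes of day 4 it read 4.51 and 7.63. At day 12 it read 4.70 and 4.37 in SHAM and 4.70 and 5.12 in ONX, and at day 21 4.41 and 4.31 in SHAM and 4.69 and 4.59 in ONX. Next to the crushed pool, SHAM day 4 pool 2 thus stood apart for this gene, well above the other 10 arrays, which ended at 5.12.

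The 2 probe sets of zp3.1, another ZP gene, read 14.55 and 13.82 in ONX day 4 pool 1. For the first, the other arrays ran from 4.23 to 6.43 with a median of 4.87, and for the second from 4.62 to 7.56 with a median of 5.54. Both had their second highest level in SHAM day 4 pool 2. The excess was 7.83 for zp3a.2, 7.71 for zpax1, 7.22 for zpax4, 6.85 for zp2l1, 6.43 for zp3f.1 and 6.20 for zp3a.1, all ZP family genes. The remaining members of the family, zp3b, zp3d.2, zpcx and zp3c, had an excess of 4.90 to 5.86.

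Maternal RNA control and germ plasm supplied 18 genes, with a median excess of 5.39. The largest was that of btg4, in the mouse an adaptor that brings the deadenylase to maternal messages. It read 12.89 in ONX day 4 pool 1 and between 4.22 and 4.47 on every other array, with a median of 4.32, so that its 11 other values spanned only a small part of a log2 unit. The gene zar1, whose product binds stored messages, read 12.83 in that pool and 5.25 in ONX pool 2, against 6.06 and 6.73 in the SHAM pools of day 4. On the arrays of days 12 and 21 zar1 lay between 5.52 and 6.55. Its relative zar1l read 12.73, with 4.28 to 6.01 elsewhere.

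Germ plasm and RNA storage genes followed the same pattern. The excess was 7.44 for cth1, a CCCH zinc finger gene, 7.03 for gtsf1, a partner of the Piwi pathway in mouse and fly, and 6.15 for buc, which builds the Balbiani body of the zebrafish oocyte. For patl2, a repressor of translation in oocytes, it was 5.54. The gene gtf3ab, a relative of the factor that binds small ribosomal RNA in frog oocytes, had 5.54 and 5.46 in its 2 probe sets. Others were nanos3 (5.04), cpeb1b (4.64), dazl (4.38), eif4e1b (4.26), dnd1 (4.12) and pabpc1l (4.02), all known from germ cells or from control of message tails and translation.

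Of meiosis and the cell cycle, 13 genes were members, with a median excess of 4.87. The germline cyclin gene ccna1 read 12.99 in ONX day 4 pool 1, with an excess of 6.94, and the cyclin gene ccnb2 read 12.56, with 5.99. The kinase gene mos, whose product holds the mature egg in metaphase, read 11.88 in that pool and 6.38 in ONX pool 2. In the other groups mos read 5.83 and 5.72 (SHAM day 4), 5.97 and 5.31 (SHAM day 12), 7.01 and 5.68 (ONX day 12), 6.28 and 5.95 (SHAM day 21) and 6.27 and 4.99 (ONX day 21). The highest of these, ONX day 12 pool 1, was still 4.87 below the crushed pool.

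Inhibitors of the anaphase-promoting complex were represented by fbxo43 (excess 5.03), which acts in meiosis, and fbxo5 (4.72). The excess was 5.81 for birc5b and 4.99 for cdca9, both of the chromosomal passenger complex, 5.75 for the cyclin gene ccnp and 4.09 for wee2, an oocyte kinase that restrains cyclin-dependent kinase. Of these 13 probe sets, 3 had their highest other level in the second crushed pool of day 4, those of fbxo5 (6.83), gmnn (6.74) and wee2 (6.83). That pool was the highest of the 11 arrays for 19.5% of all probe sets, so that this count is near the general share. The gene gmnn encodes geminin, which blocks repeated licensing of DNA replication.

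Chromatin genes with 1 symbol were few but had a large excess. The linker histone gene h1m, used in eggs and early embryos, read 13.50 in ONX day 4 pool 1 and 5.73 in SHAM day 4 pool 2, with a median of 4.73 over the other 11 arrays. A histone H2A gene, hist1h2a6, read 14.00 against at most 7.17 elsewhere. The histone chaperone gene npm2b, a nucleoplasmin, read 11.09 against at most 5.73.

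The secreted and transcription factors had a median excess of 4.80. In zebrafish, nanog, pou5f3 and sox19b encode factors laid down in the egg that start transcription in the embryo, and they showed an excess of 6.25, 5.87 and 4.47. The growth factor genes gdf3 and bmp15 had 4.91 and 4.69. For bmp15, the second probe set of the gene also read high, at 8.88 against at most 5.63 elsewhere, although it fell short of the rule.

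**Figure D2:**
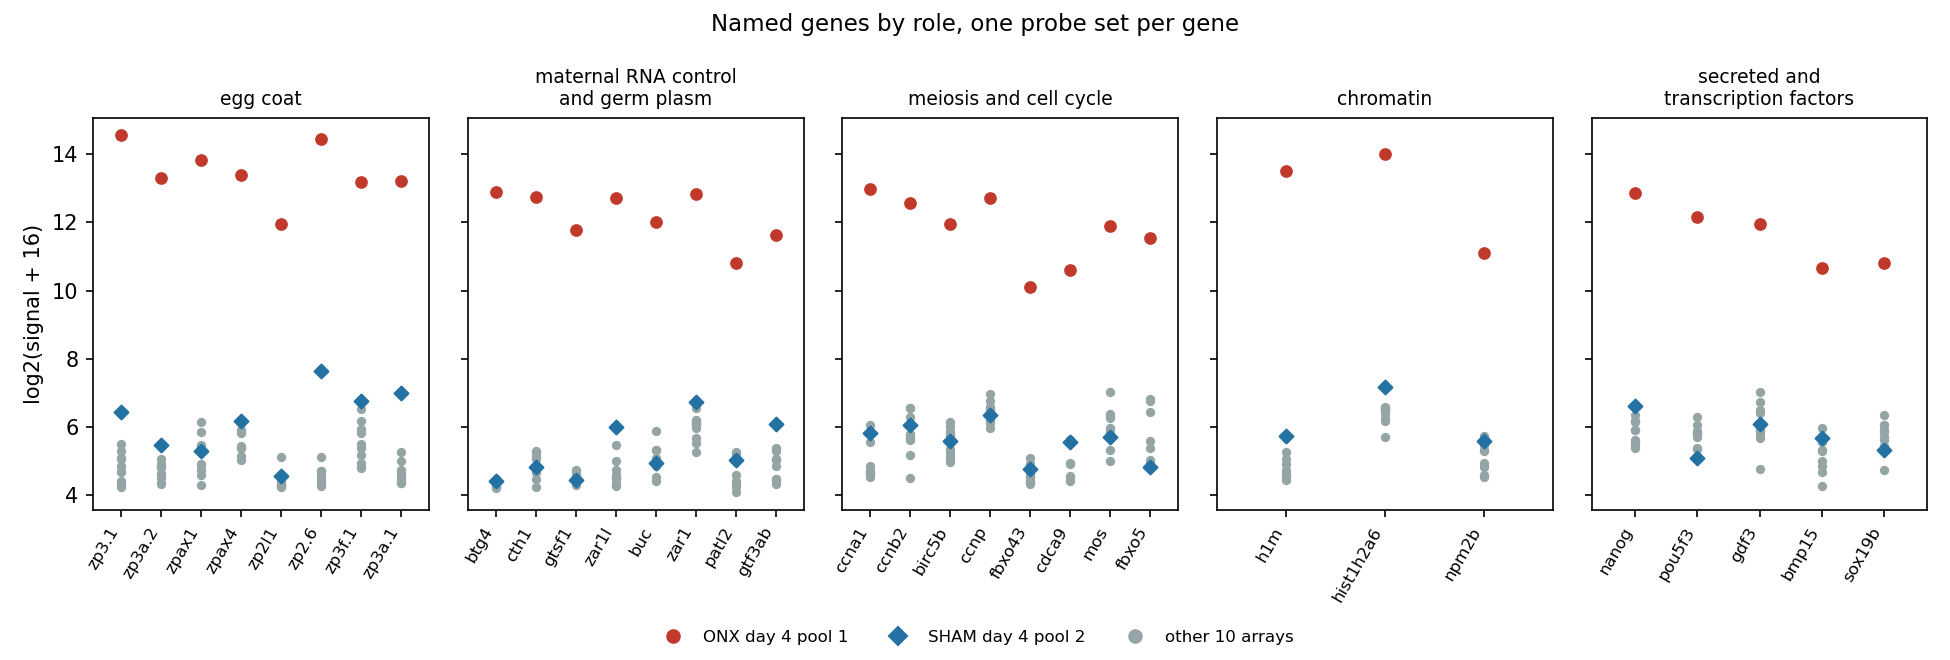
Up to 8 genes of each role, in the order of their excess, are shown as log2(signal + 16) on each of the 12 arrays. The red point is ONX day 4 pool 1, the blue diamond SHAM day 4 pool 2 and the grey points are the other 10 arrays. The red points lie at 10.11 or more, and the diamond stands above the grey points for zp2.6 (7.63) and zp3a.1 (7.01).

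Among genes outside these roles, the probe sets with the largest excess were those of si:dkey-229d11.5 (8.66 and 8.32), the claudin gene cldnd (8.62), mpv17 (8.60) and wu:fi42e03 (8.56). The importin gene kpna7, known from mouse oocytes, had an excess of 6.99. A steroid gene, cyp11a1.1, whose enzyme makes pregnenolone from cholesterol, had 4.22. Of the 15 probe sets with the largest excess, 7 carry 1 symbol, 5 several and 3 none.

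Several members share a design source, so that the 199 probe sets are not 199 independent transcripts. The number after "Dr." in a probe set's name is that of a transcript cluster, and the members fall into 147 clusters. In 10 clusters 3 or more probe sets are members, 51 in all. Cluster 4412 holds 13 members among 23 probe sets, which the annotation assigns to 4 symbols, and cluster 25133 holds 8 among 12. The member probe set of ccnp, counted above with meiosis and the cell cycle, is 1 of these 8, beside those of zgc:173856 and zgc:171474. Whether it reads a transcript of ccnp alone was not tested. Probe sets that may read several transcripts (x_at) make up 17.1% of the members and 2.01% of all probe sets. Members with such names, and the genes of near-identical families such as zp2 and zp3, can therefore read each other's transcripts.

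Other probe sets of the same genes give a reading that the rule did not use. Of the 119 genes, 8 have 14 further probe sets that are not members. Of these, 7 had an excess over 2, among them those of bmp15 (3.25), zgc:114123 (3.75 and 3.47) and 3 of wee2 (2.65 to 3.05), which had a further one at 0.86. The second probe set of dnd1 had 1.73. The others did not move with the members: cldng had an excess of -0.83, -1.05 and -3.19 in 3 further probe sets at levels of 11.45 to 12.51, sptan1 had -0.94 and mpv17 -0.98. For cldng, sptan1 and mpv17 the probe sets of 1 symbol thus disagree, and which transcript the member probe sets read was not tested.

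The position of the genes was also compared. In the gene order of the zebrafish assembly GRCz12tu, 9 of 116 placed member genes (7.76%) have another member within 3 protein-coding genes. Of the other 8598 genes on the array, 219 (2.55%) lie that near to a member. The neighbours are zp3a.1 and zp3a.2, a2m3a and a2m3g, zgc:171474 and zgc:173856, and a group of si:dkey-90l23.1, si:dkey-90l23.2 and si:ch211-145c1.1. Both zgc:171474 and zgc:173856 are read by probe sets of cluster 25133, and a2m3a and a2m3g both have x_at members. Such neighbours may read each other's transcripts, so that the 9 genes are not independent.

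Next to the threshold, the members with the smallest excess were zgc:92591 (4.01), siva1 and pabpc1l (both 4.02) and zgc:175135 (4.05), with an unnamed probe set at 4.06. The first outside were the replication licensing genes cdt1 (3.98) and mcm6l (3.96), 2 unnamed probe sets (3.96 and 3.955) and the egg coat gene zp3f.2 (3.92). Members and non-members thus grade into each other. In ONX day 4 pool 1, 307 probe sets had an excess over 3, 506 over 2 and 1216 over 1, and 188 lay more than 1 below the lowest other array. On the other arrays at most 5 probe sets had an excess over 2, again with ONX day 4 pool 1 among the arrays to exceed.

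Gene lists written from known function show how far the pattern goes, and since they were written with earlier results of these data known, they are described by counts only. Each gene is represented by the probe set with the highest mean over the 12 arrays. Of the 8792 genes with 1 symbol, 29.9% were highest in ONX day 4 pool 1, 9.6% had an excess over 1, 3.63% over 2 and 1.29% over 4. The median excess of all genes was -0.50.

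All 16 measured egg coat genes were highest in that pool, with an excess of 3.12 or more. The 4 that missed the rule were zp3f.2 (3.92), zp3d.1 (3.91), zpd (3.41) and zp2l2 (3.12). In the RNA control and germ plasm list, 12 of 33 genes had an excess over 4 and 19 over 2, and the median was 3.11. Germ cell genes below the rule included tdrd6a (3.62), the RNA helicase gene ddx4 (3.60), tdrd7a (3.37), piwil2 (2.90) and piwil1 (1.90), all known from germ granules or Piwi RNA pathways. Of the 33 genes, 25 were highest in ONX day 4 pool 1, and the lowest excess was that of nanos1 (-1.74), cpeb4a (-1.02), zgc:110063 (-0.88) and ddx6 (-0.87). The entry zgc:110063 was matched through a synonym to the array symbol spring1, so that its value is that of spring1, whose place in this list was not checked.

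In the meiosis list, 9 of 25 genes had an excess over 4 and 14 over 2, with a median of 3.19. The mitotic and meiotic kinase genes aurka and plk1 (3.61 and 3.19), and cdc20 (3.49), which activates the anaphase-promoting complex, came after the members. They also read higher in ONX day 4 pool 2 than in either SHAM pool of day 4. The values were 8.86 against 5.26 and 4.46 for plk1, 7.99 against 5.93 and 6.57 for cdc20, and 7.645 against 6.61 and 6.81 for aurka. Genes of the synaptonemal complex and chromosome axis, which act in early meiosis, were low throughout: sycp3 read 5.09 in ONX day 4 pool 1 (excess 0.26), hormad1 5.21 (0.12), sycp1 5.27 (-0.48) and syce2 had an excess of -1.01. In the chromatin list, 2 of 20 genes had an excess over 4 and 5 over 2, the others being the maintenance methylation genes dnmt1 (3.28) and uhrf1 (2.25) and the histone chaperone gene nasp (3.26). Again dnmt1, uhrf1 and nasp read higher in ONX day 4 pool 2 than in either SHAM pool of day 4. For uhrf1 the values were 8.80 against 5.71 and 6.37.

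Of 17 genes for oocyte growth factors, receptors and transcription factors, 5 had an excess over 4 and 6 over 2. The oocyte transcription factor genes lhx8a and nobox had 1.36 and 0.97, and sox3 had -2.14. The list of general cell cycle genes had a median excess of 0.92, with 1 of 26 over 4 and 4 over 2. The latter are gmnn, cdt1 (3.98), cdc6 (3.63) and orc1 (3.33), which load or block the replication licence. Of the 26 genes, 21 were highest in ONX day 4 pool 1 (80.8%, against 29.9% of all genes). An excess over 1 was found for 12 of 26, against 9.6% of all genes. The median level of this list was 10.01 in that pool, and the next highest was 8.87 in ONX day 4 pool 2. The replicative clamp gene pcna had 0.15, and ccnd1 had -2.04.

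Lists of other cell types were read in the same way. Of 16 genes of ovarian follicle cells, 4 were highest in ONX day 4 pool 1 and the median excess was -0.59, although both the summed level and the median level of the list (6.15, at most 6.14 elsewhere) were highest in that pool. These 4 were cyp11a1.1 (4.22), cyp17a1 (2.64), lamp2 (1.26) and hsd3b2 (0.66), while the aromatase gene cyp19a1a (-1.23), the receptor gene fshr (-0.03) and amh (-0.77) were not higher. The gene lamp2 read 11.40 to 12.21 on the other arrays, so that its RNA is not particular to follicle cells here. The entry hsd3b1 was matched through a synonym to the array symbol hsd3b2, whose place in this list was not checked. Of 14 testis genes, 2 were highest, with a median of -0.74 and at most 0.44 (spata4). The gene cyp17a1 (2.64), counted here with the follicle cells, was also named beforehand as a testis marker and is not among these 14. Of 28 genes listed for the embryo's own transcription, 2 were highest, with a median of -0.59, at most 1.20 (ndr1) and -1.11 for tbxta, the mesoderm gene. Whether RNA of each listed embryo gene, ndr1 among them, is absent from the egg was not checked. Of 15 liver genes, 1 was highest (fgb, 0.79), and the yolk protein genes vtg2, vtg3 and vtg4 read 4.22, 5.67 and 4.70, with an excess of -1.39, -0.24 and -1.07. Levels under 7 were found in ONX day 4 pool 1 for 13 of 14 testis, 25 of 28 embryo, 14 of 15 liver and 9 of 16 follicle cell genes. The part of such cells in the result was not tested. Summed over the list, the level was 113.4 for follicle cell genes (103.6 to 106.6 on the other arrays), 80.3 for testis genes (77.7 to 81.9), 161.0 for embryo genes (152.8 to 161.6) and 85.7 for liver genes (84.6 to 90.8).

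Eye transcripts were still abundant in the pool with oocyte transcripts. The median level of 16 retina genes was 12.25 there and 12.74 to 13.78 on the other arrays, and 13 of the 16 were lower than on any other array, against 28.3% of all genes. The lowest other median was that of ONX day 4 pool 2. The rod transducin gene gnat1 read 13.87 and 13.84 in ONX pools 1 and 2 of day 4, and 15.02 and 15.01 in the SHAM pools. The photoreceptor receptor gene nr2e3 read 8.84 and 9.92 in ONX and 10.72 and 10.96 in SHAM. Fewer cells of a type and less RNA per cell cannot be told apart in whole eyes, and the part of the oocyte transcripts in these lower values was not tested.

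**Figure D3:**
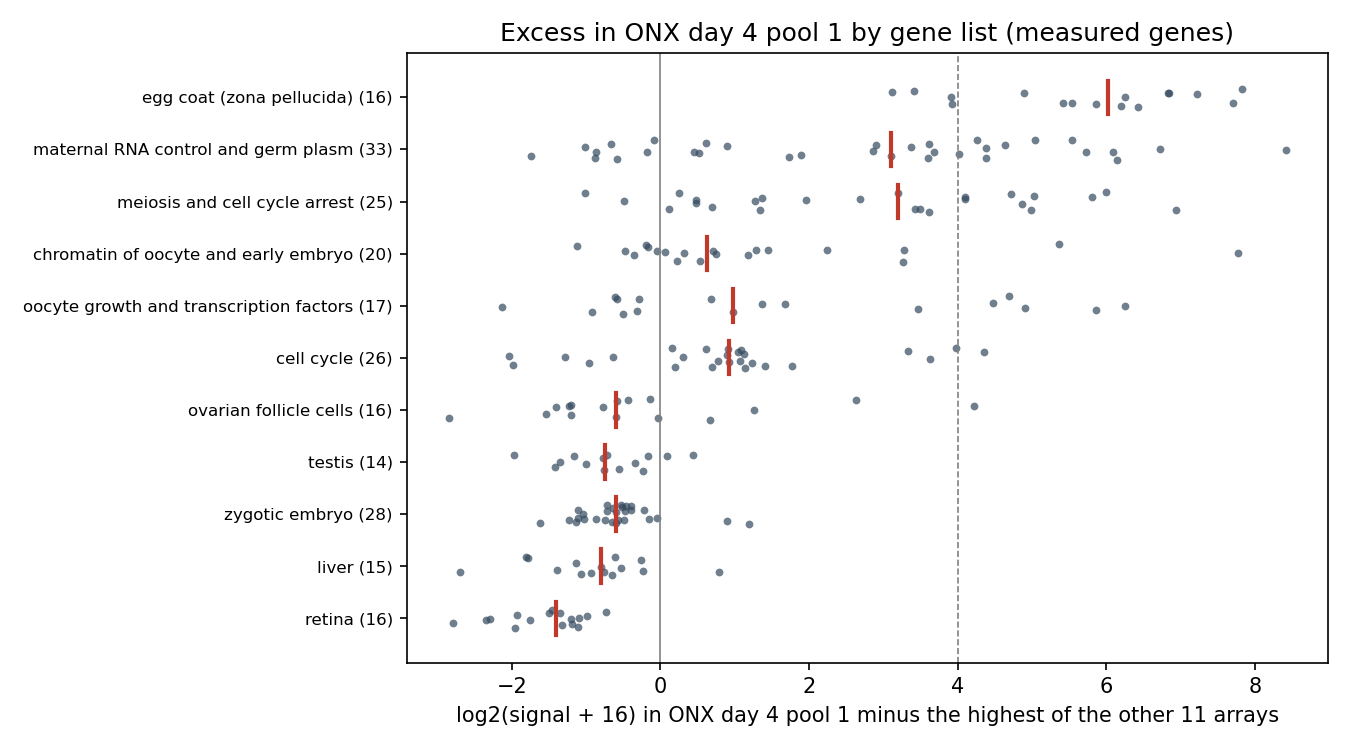
Each point is the excess of 1 measured gene of a list, in log2 units, and the number of measured genes stands behind the list's name. Red bars are list medians, the dashed line marks the rule's threshold of 4 and the solid line 0. All 16 egg coat genes lie at 3.12 or more, and all 16 retina genes lie below 0.

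On the other 11 arrays the members were not wholly flat, and 1 library stood out. In SHAM day 4 pool 2, 61 of the 199 members (30.7%) had their highest level of the 11, whereas that array was highest for 7.55% of all probe sets. The 144 members above the mean of the other 10 arrays there made up most of the group, and the median difference from that mean was 0.32 (0.01 for all probe sets). The next highest median difference was 0.05, in ONX day 12 pool 1.

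The difference is also given by brightness in the crushed pool, a value the rule used. Since every member had to lie more than 4 below that pool elsewhere, dim members could not rise as far in SHAM day 4 pool 2 as bright ones, and the values by class are a description. There the median difference was 0.79 for the 61 members that read 13 or more in ONX day 4 pool 1, 0.21 for the 83 that read 11 to 13, and 0.07 for the 55 below 11. Of 13 egg coat probe sets, 8 were highest there, as were 2 of 3 for chromatin, 4 of 19 for RNA control and germ plasm, and 0 of 13 for meiosis and the cell cycle. Clear cases were zp2.6, as given above, and zp3a.1, which read 7.01 in SHAM day 4 pool 2 and at most 5.27 on the other 10. As a share of the signal in ONX day 4 pool 1, the surplus in SHAM day 4 pool 2 over the mean of the other 10 had a median of 0.181%, and 0.200% for the 61 brightest. SHAM day 4 pool 1 showed no such surplus (median difference 0.01), nor did ONX day 4 pool 2 (-0.13). Brightness here is array signal, not a comparison of transcript amounts between genes.

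**Figure D4:**
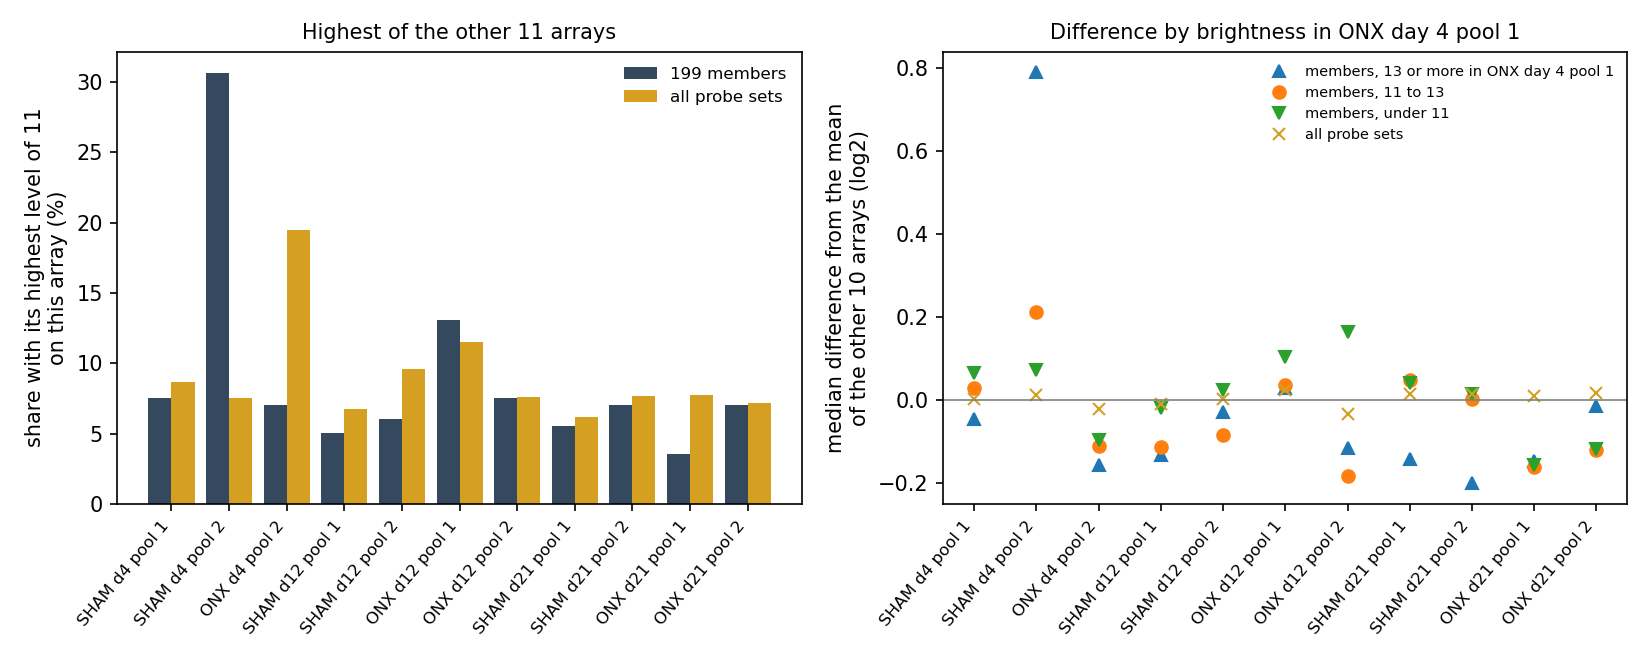
Left, the share of the 199 members (dark) and of all 15502 probe sets (yellow) whose highest level among the 11 arrays other than ONX day 4 pool 1 fell on each array, in percent. Right, the median log2 difference of each array from the mean of the other 10, for members in 3 classes of brightness in ONX day 4 pool 1 and for all probe sets. SHAM day 4 pool 2 holds 30.7% of the members and a median difference of 0.79 in the brightest class.

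ONX and SHAM eyes were compared on the 11 arrays other than ONX day 4 pool 1, with limma's moderated test over all 15502 probe sets and Benjamini-Hochberg adjustment. The rule used the highest value of these arrays, which kept every member more than 4 below that pool on each of them, but not which of them were ONX or SHAM. At day 12, 0 of the 199 passed an adjusted p of 0.05 (0% of all probe sets passed), and 5 had an unadjusted p under 0.05, 2.51% against 1.85% of all probe sets. At day 21 again 0 passed (0% of all), with 12 at an unadjusted p under 0.05, 6.03% against 1.75%. The median difference of the members, ONX minus SHAM, was 0.07 at day 12 and -0.06 at day 21, and 0.00 for all probe sets on both days. The effect did not pass in limma as different between days 12 and 21 for any member, nor for any of all 15502 probe sets (0%). In the same fit 5 members had an unadjusted p under 0.05, 2.51% against 1.77% of all probe sets.

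The members with the smallest p and 1 symbol at day 12 were zgc:114123, a2m3a and zgc:171474. The first, in 1 of its 2 member probe sets, read 5.41 and 5.39 in ONX and 5.83 and 6.53 in SHAM (-0.78 ± 0.30). The differences of the other 2, 0.87 ± 0.34 for 1 of the 2 member probe sets of a2m3a and 0.88 ± 0.35 for zgc:171474, had the opposite sign. All 3 had an adjusted p of 1.00 in limma. At day 21 the smallest p belonged to the same probe set of zgc:114123, which read 5.40 and 5.14 in ONX and 6.57 and 6.25 in SHAM (-1.14 ± 0.30). The other member probe set of this gene ran only from 4.76 to 5.31 over the 11 arrays. Next came tuba4l, an alpha tubulin gene (-1.03 ± 0.30), and bmp15, which read 4.27 and 4.87 in ONX and 5.58 and 5.56 in SHAM. These 3 did not pass either (adjusted p of 1.00 in limma). Errors are standard errors of that fit, with 2 pools in each group.

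At day 4, the second crushed pool alone was set against the 2 SHAM pools, and it was assumed to vary like the other groups. In that fit 0 of 199 members passed and 18 had an unadjusted p under 0.05 (9.05%), beside 0.0258% of all probe sets that passed and 20.9% at an unadjusted p under 0.05. Of the 18, 13 were lower in ONX pool 2 and 5 higher. The median difference of the members was -0.31, and -0.04 for all probe sets. For the members it was -0.11 without SHAM day 4 pool 2 and -0.42 without SHAM day 4 pool 1. Each of these fits sets 1 pool against 1 at day 4, and the cause of the downward shift was not tested.

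The smallest p values at day 4 were those of zgc:171474, zgc:173837 and dazl, the germ cell RNA-binding gene. For zgc:171474 ONX pool 2 read 4.43 and the SHAM pools 6.58 and 6.29 (-2.00 ± 0.43, adjusted p = 0.0896 in limma). The difference was -1.70 ± 0.45 for 1 of the member probe sets of zgc:173837 and -1.48 ± 0.42 for dazl. At such low signals the size depends on the number added before the log. For zgc:171474 it was -3.44 with 1 added and -0.95 with 64 added, and for dazl -2.60 and -0.67. In the other member probe sets of zgc:173837, ONX pool 2 read 4.78 and 5.11, against 4.31 and 5.71 in SHAM pool 2. The probe sets of this gene thus differ in direction. The largest difference of any member was upward, 2.02 for fbxo5, which read 6.83 in ONX pool 2 and 4.80 and 4.83 in SHAM. The call for zgc:171474 changed without either ONX day 12 pool, when 5 members passed (2.51%), of which 3 were lower in ONX pool 2. In those fits 9.1% and 9.23% of all probe sets passed, so that the share was lower among the members. The other named one was prr11, which read 6.95 in ONX pool 2 against 5.74 and 5.42 in SHAM (1.37, adjusted p = 0.0450 and 0.0460 in limma without each of those pools).

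The members with the highest means on the 11 other arrays were siva1 (7.97), a probe set with several zp2 symbols (7.42), cpeb1b (7.24), acp5a (7.22) and tuba4l (6.86). Of the 199, 91 stayed under 6 on every one of these arrays, 90 had their highest level between 6 and 7, and 18 reached 7 or more.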

How the data were processed

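RNA of 12 pools of zebrafish eyes was measured on Affymetrix zebrafish arrays. The deposited unit is signal intensity, which the authors computed with MAS5 (version not given in the sources used here), per the submitters' processing notes. The trimmed mean was 500.1 on every array, and the scanner images were not used here. The 115 AFFX controls were set aside, 16 was added and log2 taken, with no further normalization or filter, so that all 199 members were tested.

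Symbols came from the platform annotation: 10795 probe sets had 1 symbol, 135 several and 4572 none, and 10711 of the first were found in the RefSeq gene table. One result of the rule, for the symbol it leaves out, is not reported here. The members and gene lists were chosen with earlier results of these data known.

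The limma package (3.58.1, R 4.3.3) fitted 1 mean per group to 11 arrays, with variances moderated along a trend (5 residual and 4.25 prior degrees of freedom). Same-numbered pools were not paired. Tested on simulated data for day 12 over 15502 probe sets, the fit found 13 of 50 probe sets given a 2-fold change, 39 of 50 given a 4-fold, 46 of 50 given an 8-fold and all 50 given a 16-fold change. Of 153 calls, 5 were false. The changed probe sets were drawn at random from all probe sets, whereas the members read low on these arrays. The shares found therefore do not measure how well changes in members would be detected. Named genes were those with the largest excess overall (15) and in each role (up to 8), the 5 next to the threshold on each side, the 5 highest elsewhere, the 3 with the smallest p in each comparison, further probe sets of member genes, 5 oocyte markers, and up to 6 genes with the largest and 4 with the smallest excess of each list. Other genes named, such as kpna7, the further members of each role and list genes between the extremes, were chosen after their values were seen. The number of arrays limits the precision.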

Additional observations from a re-analysis of the deposited data

How the results depend on the processing

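The number of members was 199, and 307 with an excess of more than 3. It ran from 138 to 227 under the other offsets, normalizations and the stricter threshold, and from 199 to 210 when each other array was left out. Leaving an array out can only lower the level to exceed, so that this count could not fall under 199. Calls among members stayed at 0 under all 21 alternatives at day 12 and all 21 at day 21. Under each of these 0% of all probe sets passed, so that the count of members could not differ from 0. At day 4, with ONX pool 2 alone, the count was 0 under 16 of 19 alternatives. It was 1 (0.503%) at an adjusted p of 0.1, which 3.62% of all probe sets passed. It was 0 to 5 when each array was left out in turn, with 5 (2.51%) without either ONX day 12 pool, where 9.1% and 9.23% of all passed; the cause was not tested. With ONX day 4 pool 1 put back, a setting chosen after seeing the data, it was 1, beside 7.86% of all, but that array chose the members and nothing is read from this count. Only 4 members were in the upper 60% of probe sets by signal. At days 12 and 21, 0 of them passed, as did 0 of the 9302 probe sets kept. With the replicate block within a day, 0 members passed in limma at days 12 and 21 (4 and 11 at an unadjusted p under 0.05), and 0% of all probe sets passed. At day 4 that block gave a median difference of -0.42 for the members. Replicate differences of SHAM and ONX correlated at -0.06 at day 12 and 0.02 at day 21 across 15502 probe sets, so that the numbers were not treated as pairs. Of 174 values of named genes under alternatives, 171 kept their side of the threshold and 0 changed direction. The 3 others were those of zgc:171474 at day 4. Many of these alternatives, such as leaving out an array of another day, do not alter the difference itself. Its direction could not change there, so that the tally does not measure how stable the differences are.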
